A study of Homo sapiens with 6 samples.

Results

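Aminoacyl-tRNA synthetases are the enzymes that join each amino acid to its transfer RNA. Of the 17513 genes listed in the deposited tables, 37 are followed here as members. Members were matched by gene symbol, a rule that leaves out TARS3, a second cytosolic threonine enzyme given below with the partners. Of the 37, 20 encode cytosolic or dual enzymes and 17 encode enzymes that serve mitochondria alone; no matching symbol had to be dropped. RNA sequencing measured polyadenylated RNA in 6 libraries. The series description gives the cells as macrophages made from THP1, a line of human monocytic leukemia. For 48 h they were educated with medium of KYSE150, a line of esophageal squamous cell carcinoma. In the 3 libraries labelled shSPP1#2 the KYSE150 cells carried a hairpin against SPP1, and in the 3 labelled shNC they carried the control hairpin. A single hairpin against SPP1 and a single carcinoma line therefore stand behind every comparison.

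Charging of transfer RNA takes place separately in the cytosol and in mitochondria, and nuclear genes encode the enzymes of both. Most amino acids have a gene for each compartment, whereas GARS1 (glycine) and KARS1 (lysine) each give rise to a cytosolic and a mitochondrial form. EPRS1 charges transfer RNAs for glutamate and for proline in one polypeptide. When charged transfer RNA runs short, the kinase GCN2 phosphorylates eIF2 and translation of the transcription factor ATF4 goes up. ATF4 is known to bind the promoters of several cytosolic synthetase genes, through elements whose core reads TGATGNAA. WARS1, the tryptophan enzyme, is also known as an interferon-inducible gene.

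The libraries held macrophage RNA, although the sample labels name KYSE150 itself. All 12 macrophage markers examined reached 1 FPKM (fragments relative to the gene's length and the library's total) in every library, with a summed level of 2543 to 2620 FPKM in shSPP1#2 medium and 2611 to 2816 FPKM in shNC medium. Of 12 squamous epithelial markers, S100A2 alone reached 1 FPKM, and KRT5, KRT6A, KRT14, DSG3, SFN, EPCAM and PKP1 were under 0.1 FPKM in all libraries. The summed level of the squamous markers was 3.28 to 3.96 FPKM in shSPP1#2 medium and 3.25 to 3.80 FPKM in shNC medium. SPP1 of the receiving cells, which does not check the hairpin, averaged 2002 ± 65.4 FPKM in shSPP1#2 medium and 1992 ± 93.6 FPKM in shNC medium (SD, n = 3 each). Libraries totalled 20202142 to 20572456 estimated counts in shSPP1#2 medium and 18113591 to 20626346 in shNC medium. The labels do not state that replicates are separate cultures; p-values reflect the spread among these 6 samples, which could be technical.

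The letters TGATGNAA, the core of the ATF4 response element, stood in the promoters of 6 cytosolic synthetase genes. Promoters of 30 of the 37 members were found in the RefSeq table (GRCh38.p14), each covering 250 bases before to 50 bases after the gene's start. Both strands were searched. A single promoter entry was used for each gene, so matches, their positions and their absence hold for that annotated start only. The letters occurred in 6 of 16 cytosolic or dual promoters (37.5%) and in 1 of 14 mitochondrial promoters (7.14%). Over all 27305 promoters of the same length the share was 3.67%, and over the promoters of 11055 tested genes it was 1.84%. The 6 cytosolic matches all read TGATGCAA, on the gene's strand or as its complement TTGCATCA. This narrower form was read from these matches, so its counts by class are no separate result. It was found in 0.923% of all promoters, in 0.534% of those of tested genes and in 0 of the 14 mitochondrial ones. In 5 of the 6 genes the match lay within 22 bases of the start, and in AARS1 it lay 187 bases before it. A match is a description of letters and not of a bound site. To let the matches be compared, 30 bases around each are shown 5′ to 3′ on the gene's strand, with the matched letters in capitals.
AARS1: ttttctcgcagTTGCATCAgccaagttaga
CARS1: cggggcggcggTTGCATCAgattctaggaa
IARS1: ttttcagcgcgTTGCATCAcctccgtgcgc
MARS1: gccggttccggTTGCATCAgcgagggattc
NARS1: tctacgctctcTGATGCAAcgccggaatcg
TARS1: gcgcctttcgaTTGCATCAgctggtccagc
YARS2: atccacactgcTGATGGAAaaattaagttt
The windows lie at chr16:70289675-70289704 on the minus strand for AARS1 (alanine), chr11:3057407-3057436 minus for CARS1 (cysteine) and chr9:92293692-92293721 minus for IARS1 (isoleucine). Those of MARS1 (methionine) and TARS1 (threonine) lie on the plus strand at chr12:57488053-57488082 and chr5:33440956-33440985. NARS1 (asparagine) was read at chr18:57621804-57621833 on the minus strand and the mitochondrial tyrosine gene YARS2 at chr12:32756076-32756105 on the minus strand.

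Longer stretches of the promoter are shown for AARS1, CARS1, NARS1 and TARS1, the cytosolic members with a match among the genes whose values are followed below. They place the match relative to the start: the AARS1 stretch runs from base -200 to base -51, and the others run from base -120 to base 30, where base 1 is the start.
AARS1: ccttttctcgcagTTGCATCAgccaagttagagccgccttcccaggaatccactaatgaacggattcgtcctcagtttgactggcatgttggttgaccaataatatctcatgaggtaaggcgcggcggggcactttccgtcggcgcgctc
CARS1: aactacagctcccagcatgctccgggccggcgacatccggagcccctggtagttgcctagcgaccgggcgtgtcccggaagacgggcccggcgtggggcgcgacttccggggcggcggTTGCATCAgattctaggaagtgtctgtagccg
NARS1: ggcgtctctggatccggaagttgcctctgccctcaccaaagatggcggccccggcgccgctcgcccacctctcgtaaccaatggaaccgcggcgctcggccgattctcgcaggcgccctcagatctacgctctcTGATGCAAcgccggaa
TARS1: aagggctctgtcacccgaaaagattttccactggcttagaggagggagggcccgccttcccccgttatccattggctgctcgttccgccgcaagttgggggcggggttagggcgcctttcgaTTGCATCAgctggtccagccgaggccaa
These stretches lie at chr16:70289557-70289706 (minus), chr11:3057394-3057543 (minus), chr18:57621807-57621956 (minus) and chr5:33440845-33440994 (plus) in the same order.

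Cytosolic synthetase transcripts were far more abundant than mitochondrial ones. Every member was detected at 1 FPKM or more in all 6 libraries, and no member had a count of 0. The median over genes of the mean FPKM was 64.9 for the 20 cytosolic or dual genes and 5.79 for the 17 mitochondrial genes, an 11.2-fold ratio of class medians. At the top of the cytosolic class stood EPRS1 with a mean of 183 FPKM over the 6 libraries. SARS1, the serine enzyme, followed at 175 FPKM, WARS1 at 159 FPKM and TARS1 at 159 FPKM. Ranges over the libraries overlapped between each of these neighbours. Near the low end of the cytosolic class stood RARS1 (arginine) at 34.6 FPKM, and FARSB was the lowest at 16.1 FPKM, with ranges apart from each other.

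The mitochondrial class was headed by IARS2 (isoleucine), whose mean was 38.5 FPKM, with RARS2 (arginine) at 22.4 FPKM and TARS2 (threonine) at 17.2 FPKM. The range of IARS2 lay above that of RARS2 and the range of RARS2 above that of TARS2. At the low end NARS2 (asparagine) averaged 2.17 FPKM, PARS2 (proline) 1.89 FPKM and FARS2 (phenylalanine) 1.53 FPKM, with ranges that overlapped between neighbours. FARS2 rested on 46.8 to 56.0 estimated counts per library, against 13582 to 18471 for EPRS1. Of 16 neighbouring places in the mitochondrial order 8 had ranges apart, and of 19 in the cytosolic order 5 did. The classes overlapped in level: 4 mitochondrial genes had a mean above that of FARSB, and 4 cytosolic genes had a mean below that of IARS2.

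**Figure D1:**
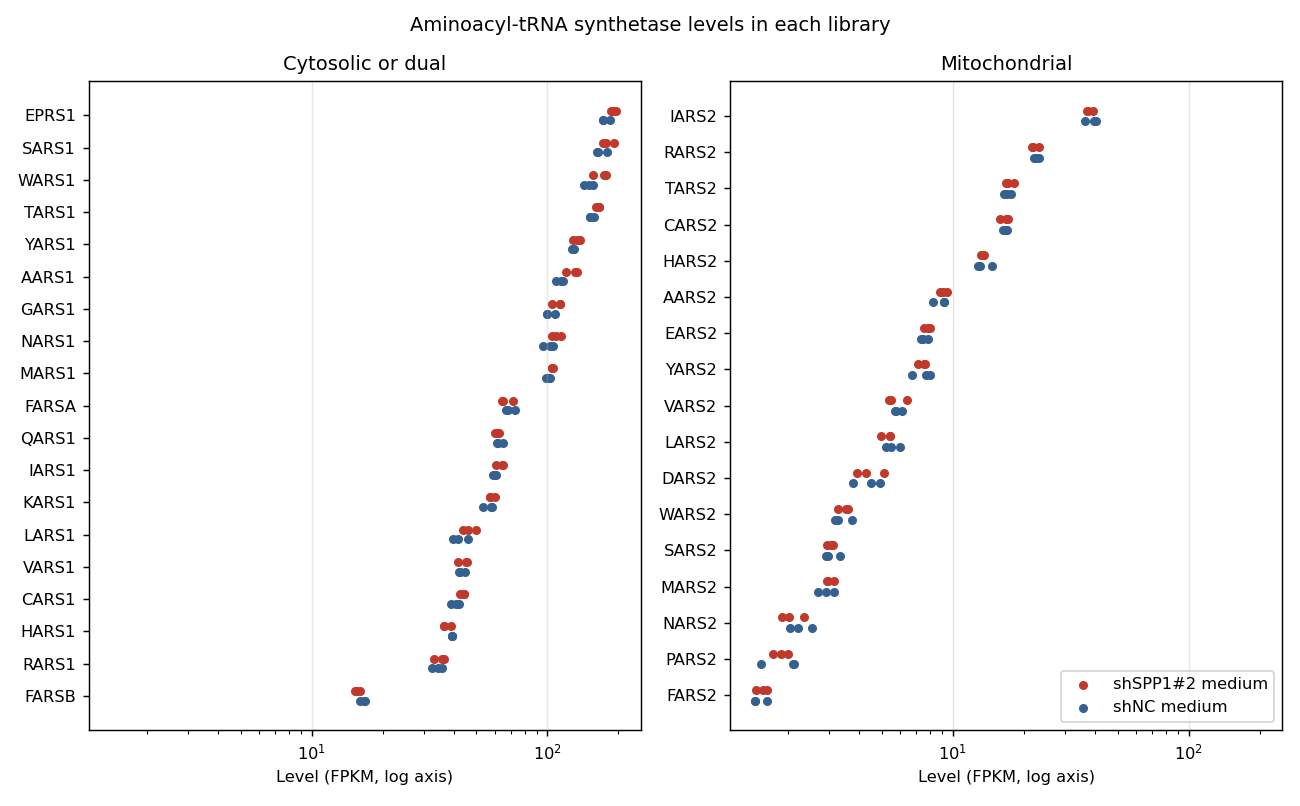
FPKM of 36 of the 37 synthetase genes in each library on a log axis, cytosolic or dual genes on the left and mitochondrial genes on the right, ordered by mean level; each point is 1 library, red for shSPP1#2 and blue for shNC medium. Means span 16.1 to 183 FPKM in the cytosolic class and 1.53 to 38.5 FPKM in the mitochondrial class.

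Genes of the 2 compartments were paired where they serve the same single amino acid (phenylalanine enters with both of its cytosolic subunits). The cytosolic transcript was the more abundant in every library in 16 of 16 such pairs. EPRS1, which serves glutamate and proline, was not paired with EARS2 (glutamate) or PARS2. Its mean was 183 FPKM, against 7.66 FPKM for EARS2 and 1.89 FPKM for PARS2. Among these 16 pairs the ratio of FPKM values was widest for serine. There SARS1 over SARS2 averaged 59.9 ± 5.03 in shSPP1#2 medium and 55.2 ± 1.03 in shNC medium (SD, n = 3 each). The ratio was narrowest for arginine, with RARS1 over RARS2 at 1.58 ± 0.053 in shSPP1#2 medium and 1.51 ± 0.042 in shNC medium. SARS2 is uncertain, because exons of other genes cover 57.0% of its exonic bases in GENCODE v29, and 21.99% of those of VARS2 (valine) are covered by GTF2H4 on the same strand. The subunits of the cytosolic phenylalanine enzyme, FARSA and FARSB, differed 3.997- to 4.66-fold in FPKM over the 6 libraries.

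No synthetase gene passed the edgeR test for a difference between shSPP1#2 and shNC medium. It was the quasi-likelihood test on rounded estimated counts, with p-values adjusted by Benjamini-Hochberg over all 13555 genes tested and a call at an adjusted p below 0.05. All 37 members were tested, and 0 of 20 cytosolic or dual and 0 of 17 mitochondrial genes were called, where 0 of all 13555 genes (0%) were. At an unadjusted p under 0.05, 7 cytosolic genes stood higher in shSPP1#2 medium and 0 lower, where 3.45% of all tested genes stood higher and 3.39% lower; no mitochondrial gene reached that p in either direction. Limma on log2(FPKM + 1) called 0 members of either class. DESeq2 at its default settings called 0 of the 19 cytosolic members to which its independent filter left an adjusted p; only 2 of the 17 mitochondrial members kept one, so DESeq2 says little of that class. DESeq2 with its independent filter set for an adjusted p of 0.05, a setting chosen after the data were seen, called EPRS1 (adjusted p = 0.0344) and AARS1 (adjusted p = 0.0486). A planned edgeR fit with the replicate number as a block called WARS1 (adjusted p = 0.0196) and EPRS1 (adjusted p = 0.0350). The labels do not state that same-numbered libraries are pairs. Over all settings the adjusted p ran from 0.0196 to 0.9999 for WARS1, from 0.0344 to 0.9999 for EPRS1 and from 0.0486 to 0.9999 for AARS1.

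Estimates are given for each class apart. Of the 20 cytosolic or dual genes 16 had a positive log2 fold change, where 49.9% of all tested genes did, and the class median was 0.060 (1.04-fold) beside a median of -0.0003 over all tested genes. Of the 17 mitochondrial genes 5 were positive and 12 negative, with a median of -0.023. The count of positive mitochondrial genes was 8 without shNC replicate 3, the highest of any setting, and 4 without shSPP1#2 replicate 2, the lowest. Groups did not overlap on the normalized CPM scale, with the shSPP1#2 libraries higher, for 8 cytosolic and 0 mitochondrial genes, where 5.63% of all tested genes did so. They did not overlap with the shSPP1#2 libraries lower for 1 cytosolic gene, HARS1, and 1 mitochondrial gene, NARS2, where 5.5% of all tested genes did. In bulk RNA a different number of cells and a different level per cell cannot be told apart. The members were chosen with earlier results in view, so these counts are a description and carry no test. The count of 7 cytosolic genes at an unadjusted p under 0.05 was 3 without shSPP1#2 replicate 1, 3 without shNC replicate 2 and 3 without shNC replicate 3.

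**Figure D2:**
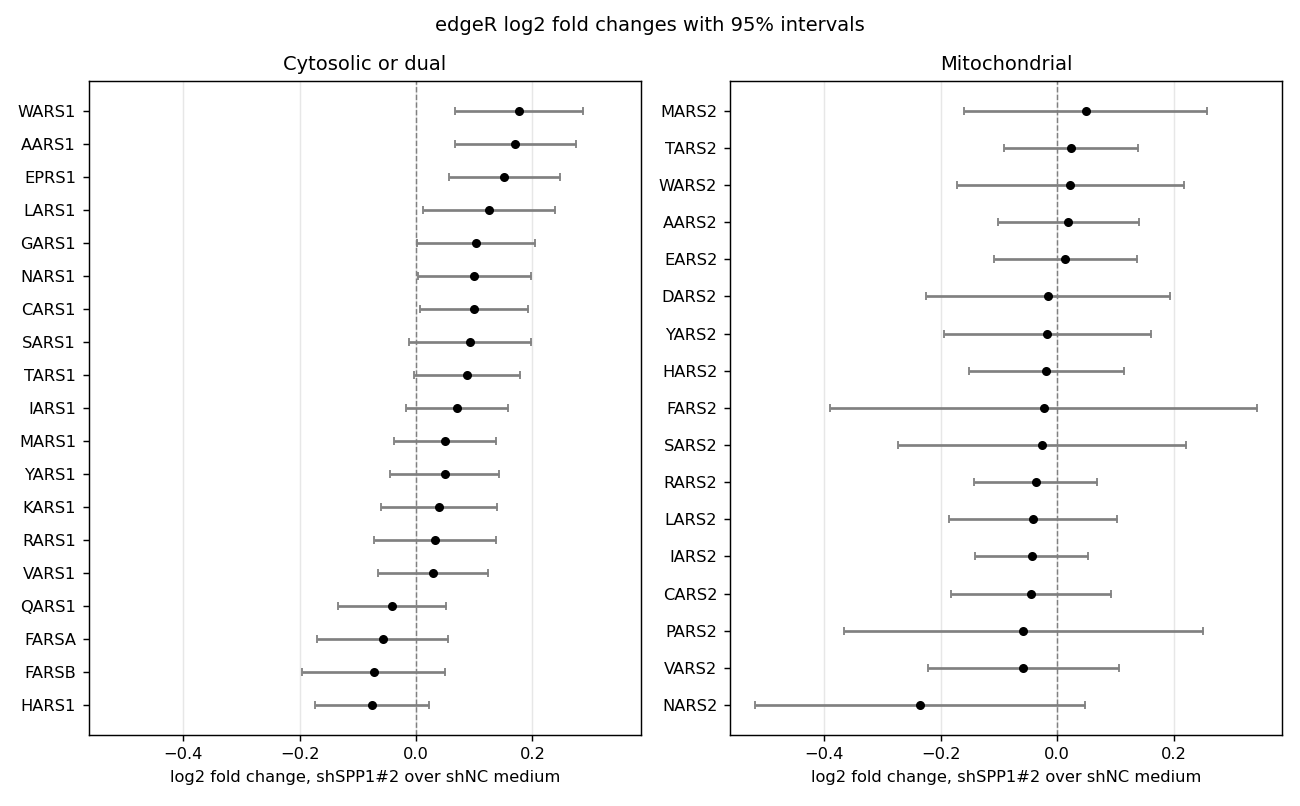
edgeR log2 fold change (shSPP1#2 over shNC medium) of 36 of the 37 synthetase genes, each with its 95% interval, cytosolic or dual genes on the left and mitochondrial genes on the right. The interval, not adjusted for the number of genes, lies above 0 for 7 cytosolic genes and for no mitochondrial gene. It does so for 468 of all 13555 tested genes, and no gene was called after adjustment. The cytosolic estimates run from -0.076 to 0.18.

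Together the cytosolic or dual genes took 0.523%, 0.506% and 0.496% of the estimated counts in shSPP1#2 replicates 1, 2 and 3, and 0.487%, 0.463% and 0.472% in shNC replicates 1, 2 and 3. The 3 shSPP1#2 shares lay above the 3 shNC shares. The gap between shSPP1#2 replicate 3 and shNC replicate 1 was smaller than the spread within either group. Mitochondrial genes took 0.0466%, 0.0466% and 0.0485% in shSPP1#2 medium and 0.0484%, 0.0461% and 0.0489% in shNC medium, and these groups overlapped. The lowest share of either class was in shNC replicate 2, which was also the library of lowest total count; the part of depth in these shares was not tested.

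**Figure D3:**
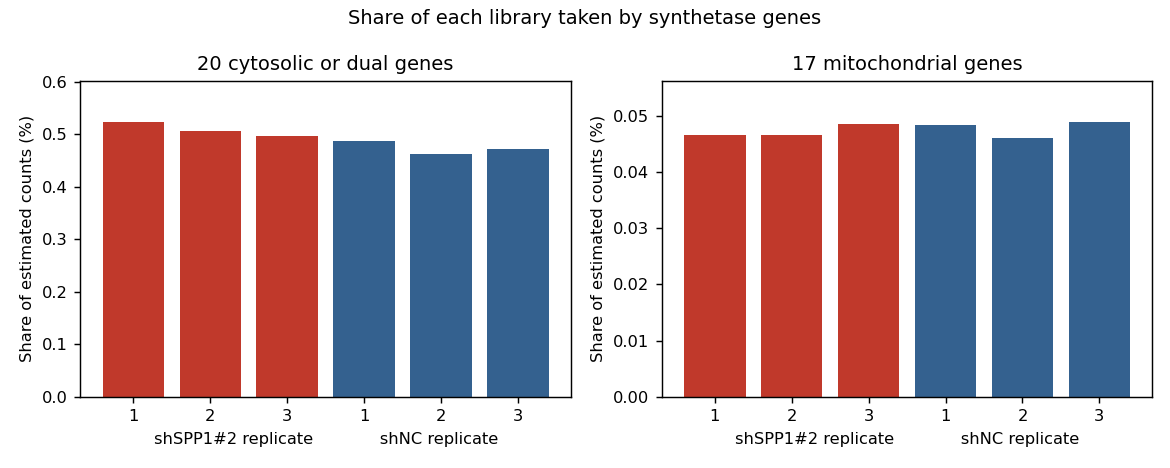
Share of each library's estimated counts, in percent, taken by the 20 cytosolic or dual genes (left) and the 17 mitochondrial genes (right), with 1 bar per library, red for shSPP1#2 and blue for shNC medium. Cytosolic shares are 0.496% to 0.523% in shSPP1#2 medium and 0.463% to 0.487% in shNC medium, whereas mitochondrial shares overlap.

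AARS1, which charges alanine, had the smallest p of the family. Its level was 134, 131 and 120 FPKM in shSPP1#2 replicates 1, 2 and 3, and 117, 109 and 114 FPKM in shNC replicates 1, 2 and 3. The groups did not overlap, and shSPP1#2 replicate 3 lay nearest to shNC. The log2 fold change was 0.17, its standard error 0.049 and its 95% interval 0.067 to 0.27 (edgeR adjusted p = 0.486), rank 70 of 13555 genes by p. With single libraries left out it ran from 0.14 to 0.23. GENCODE v29 (GRCh38) places AARS1 (Entrez 16) on chromosome 16, 70252295 to 70289543, minus strand, and no exon of another gene overlaps its exons there.

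WARS1, the tryptophan enzyme, had the highest estimate of the family. It measured 177, 173 and 157 FPKM in the shSPP1#2 libraries and 156, 150 and 142 FPKM in the shNC libraries. The groups did not overlap, although shSPP1#2 replicate 3 and shNC replicate 1 differed by little (156.53 and 156.43 FPKM). Its log2 fold change was 0.18 with a standard error of 0.052 (95% interval 0.068 to 0.29, edgeR adjusted p = 0.486). The value was 0.14 to 0.24 with single libraries left out. WARS1 (Entrez 7453) occupies chromosome 14, 100333788 to 100376805, minus strand, where exons of WDR25 and of an antisense gene on the opposite strand cover 10.6% of its exonic bases. Reads from that part are uncertain, since no source used here states whether counting used strand.

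EPRS1, the glutamate and proline enzyme and the most abundant member, measured 196, 189 and 187 FPKM in shSPP1#2 medium and 185, 172 and 172 FPKM in shNC medium. The groups did not overlap, and shNC replicate 1 stood closest to the shSPP1#2 libraries. Its log2 fold change was 0.15 with a standard error of 0.045 (95% interval 0.0565 to 0.25, edgeR adjusted p = 0.486). On the FPKM scale the estimate was smaller, 0.11 with limma on log2(FPKM + 1). EPRS1 (Entrez 2058) lies on chromosome 1, 219968601 to 220046658, on the minus strand, 47443 bases from the mitochondrial gene IARS2. That neighbour had a log2 fold change of -0.044.

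LARS1 and CARS1, the leucine and cysteine enzymes, came next by p. LARS1 measured 49.8, 43.7 and 46.0 FPKM in shSPP1#2 medium and 46.0, 39.9 and 41.8 FPKM in shNC medium. Its groups overlapped, and its log2 fold change was 0.13 (95% interval 0.013 to 0.24, edgeR adjusted p = 0.673). Without shSPP1#2 replicate 1 it was 0.073, with an unadjusted edgeR p of 0.217, and without shNC replicate 1 it was 0.18. CARS1 measured 44.2, 42.8 and 44.5 FPKM in shSPP1#2 medium and 42.2, 38.9 and 40.9 FPKM in shNC medium. Its groups did not overlap, and its log2 fold change was 0.10 (95% interval 0.0077 to 0.19, edgeR adjusted p = 0.691).

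NARS1, GARS1 and TARS1 complete the 8 cytosolic or dual genes of smallest p. NARS1 measured 114, 104 and 108 FPKM in shSPP1#2 medium and 105, 95.9 and 102 FPKM in shNC medium, so its FPKM values overlapped, while its normalized CPM values did not. GARS1, which serves both compartments, measured 113, 113 and 105 FPKM in shSPP1#2 medium and 107, 99.91 and 99.96 FPKM in shNC medium. TARS1 measured 165, 166 and 160 FPKM in shSPP1#2 medium and 158, 151 and 152 FPKM in shNC medium. GARS1 overlapped between the groups and TARS1 did not. Their log2 fold changes were 0.10 for NARS1, 0.10 for GARS1 and 0.088 for TARS1, with standard errors of 0.046, 0.048 and 0.043 (edgeR adjusted p = 0.714, 0.719 and 0.741). The other dual gene, KARS1, had a log2 fold change of 0.039 (95% interval -0.061 to 0.14).

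**Figure D4:**
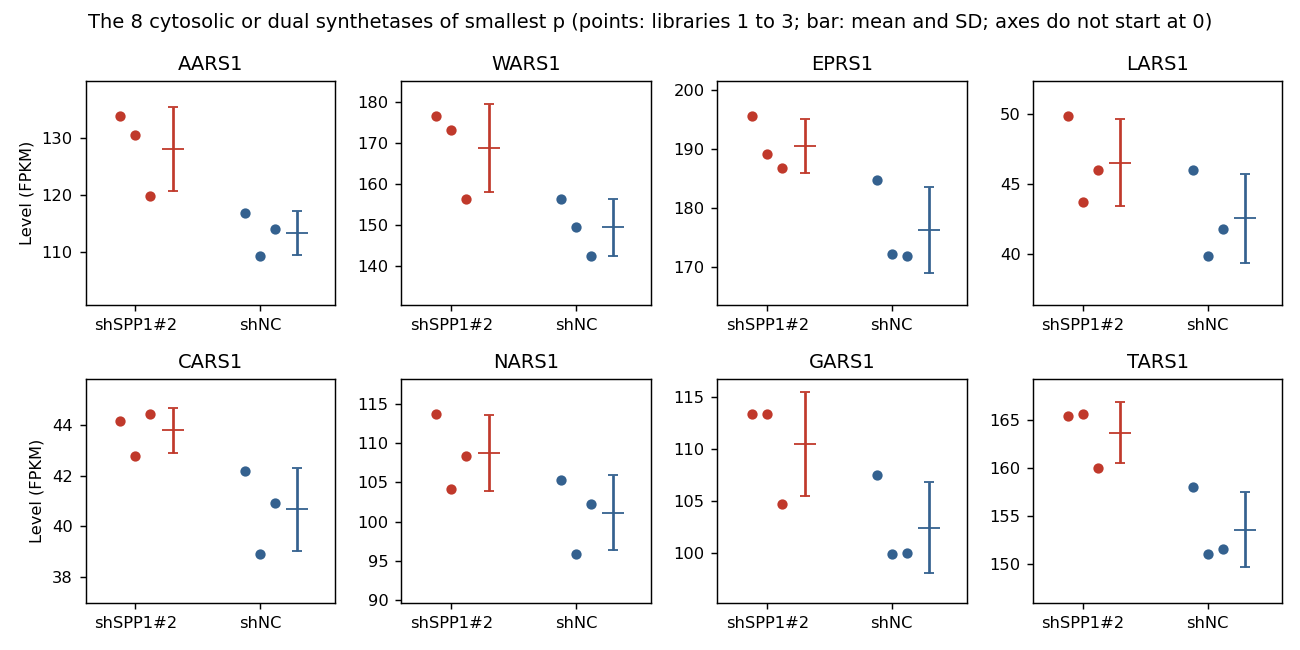
FPKM of the 8 cytosolic or dual synthetases of smallest edgeR p, with shSPP1#2 libraries in red on the left and shNC libraries in blue on the right of each panel; points are replicates 1 to 3, bars are the mean and SD (n = 3), and the vertical axes do not start at 0. AARS1, WARS1, EPRS1, CARS1 and TARS1 show no overlap between groups, and LARS1, NARS1 and GARS1 overlap. The genes were picked by p in these same libraries, so the lack of overlap is no separate result.

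SARS1, the serine enzyme, measured 192, 177 and 173 FPKM in shSPP1#2 medium and 179, 164 and 163 FPKM in shNC medium. Its groups overlapped, and its log2 fold change was 0.093 (95% interval -0.012 to 0.20, edgeR adjusted p = 0.778). It was 0.049 without shSPP1#2 replicate 1, the lowest of the fits that leave out 1 library, and 0.13 without shSPP1#2 replicate 3, the highest. IARS1 and MARS1, both with TTGCATCA at the promoter, had log2 fold changes of 0.071 and 0.050, with groups that did not overlap. MARS1 is uncertain, since exons of ARHGAP9 and of DDIT3 on the opposite strand cover 7.38% and 5.05% of its exonic bases; DDIT3 encodes CHOP, itself a transcription factor of the same stress response. RARS1 measured 35.9, 32.9 and 36.5 FPKM in shSPP1#2 medium and 35.8, 32.4 and 34.3 FPKM in shNC medium. Its groups overlapped, and its log2 fold change was 0.032, with 0.0027 without shNC replicate 2 and 0.067 without shSPP1#2 replicate 2.

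The 4 cytosolic genes with negative estimates were HARS1 (histidine), FARSB, FARSA and QARS1 (glutamine). HARS1 measured 36.3, 36.5 and 39.1 FPKM in shSPP1#2 medium and 39.4, 39.4 and 39.3 FPKM in shNC medium. All 3 shSPP1#2 values lay below the shNC values, and shSPP1#2 replicate 3 was the closest to them. Its log2 fold change was -0.076 (95% interval -0.17 to 0.022, edgeR adjusted p = 0.815). HARS1 lies on chromosome 5, 140673904 to 140691862, minus strand, head to head with the mitochondrial gene HARS2 (140691426 to 140699318, plus strand), and 437 exonic bases are shared between them. HARS2 had a log2 fold change of -0.018 (95% interval -0.15 to 0.12). FARSB measured 15.6, 15.3 and 16.1 FPKM in shSPP1#2 medium and 16.8, 15.99 and 16.8 FPKM in shNC medium, with a log2 fold change of -0.072. FARSA had a log2 fold change of -0.057 and QARS1 one of -0.041. Groups overlapped for FARSB, FARSA and QARS1.

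Among the mitochondrial genes NARS2 had the smallest p and the most negative estimate. It measured 1.88, 2.02 and 2.34 FPKM in shSPP1#2 medium and 2.52, 2.2 and 2.05 FPKM in shNC medium, with 80.5 to 94.0 estimated counts in the shSPP1#2 libraries and 84.0 to 110 in the shNC libraries. The groups overlapped in FPKM but not in normalized CPM. Its log2 fold change was -0.24 with a standard error of 0.14 (95% interval -0.52 to 0.048, edgeR adjusted p = 0.791). On the FPKM scale limma gave smaller estimates, -0.081 on log2(FPKM + 1) and -0.11 on log2(FPKM + 0.1). For the other 16 mitochondrial genes the interval lay within 0.5 of 0.

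IARS2 measured 37.4, 37.1 and 39.4 FPKM in shSPP1#2 medium and 39.9, 36.5 and 40.6 FPKM in shNC medium. RARS2 measured 21.98, 21.6 and 23.1 FPKM in shSPP1#2 medium and 23.2, 22.2 and 22.5 FPKM in shNC medium. VARS2 measured 5.38, 5.46 and 6.41 FPKM in shSPP1#2 medium and 5.76, 5.67 and 6.07 FPKM in shNC medium. Groups overlapped for each of these 3 genes. Their log2 fold changes were -0.044, -0.037 and -0.058, with edgeR adjusted p-values of 0.907, 0.935 and 0.934. Leaving out 1 library at a time gave ranges of -0.083 to -0.015 for IARS2, -0.058 to -0.018 for RARS2 and -0.13 to -0.012 for VARS2. TARS2, next to RARS2 in abundance, had a log2 fold change of 0.024 and groups that overlapped (16.9, 18.3 and 17.2 FPKM in shSPP1#2 medium, 17.6, 16.6 and 16.9 FPKM in shNC medium). PARS2 had 1.86, 1.72 and 2.00 FPKM in shSPP1#2 medium and 2.10, 1.53 and 2.12 FPKM in shNC medium. FARS2 had 1.57, 1.63 and 1.46 FPKM in shSPP1#2 medium and 1.63, 1.45 and 1.45 FPKM in shNC medium. At such counts the intervals were wide, from -0.37 to 0.25 for PARS2 and from -0.39 to 0.34 for FARS2.

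Set side by side by amino acid, the cytosolic gene had the higher log2 fold change in 13 of 16 pairs. EPRS1, which is in none of these pairs, stood at 0.15, with EARS2 at 0.014 and PARS2 at -0.058. The widest difference was for asparagine, with NARS1 at 0.10 and NARS2 at -0.24, a value that limma on FPKM put nearer to 0. For leucine LARS1 stood at 0.13 and LARS2 at -0.041, for tryptophan WARS1 at 0.18 and WARS2 at 0.022, and for alanine AARS1 at 0.17 and AARS2 at 0.019. The closest pair was that of methionine, with MARS1 at 0.050 and MARS2 at 0.049. The 3 pairs in the other direction were HARS1 with HARS2 and both FARSA and FARSB with FARS2. All pairs come from the same 6 libraries, and no test was made over them. Within libraries, the FPKM ratio of the pair did not overlap between the groups for 2 of 16 pairs, a share near that of all tested genes whose own normalized CPM did not overlap in either direction (11.1%), so the count is no result about the pairs. CARS1 over CARS2 was 2.58, 2.56 and 2.81 in shSPP1#2 medium and 2.52, 2.28 and 2.51 in shNC medium. IARS1 over IARS2 was 1.73, 1.64 and 1.63 in shSPP1#2 medium and 1.52, 1.62 and 1.49 in shNC medium.

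**Figure D5:**
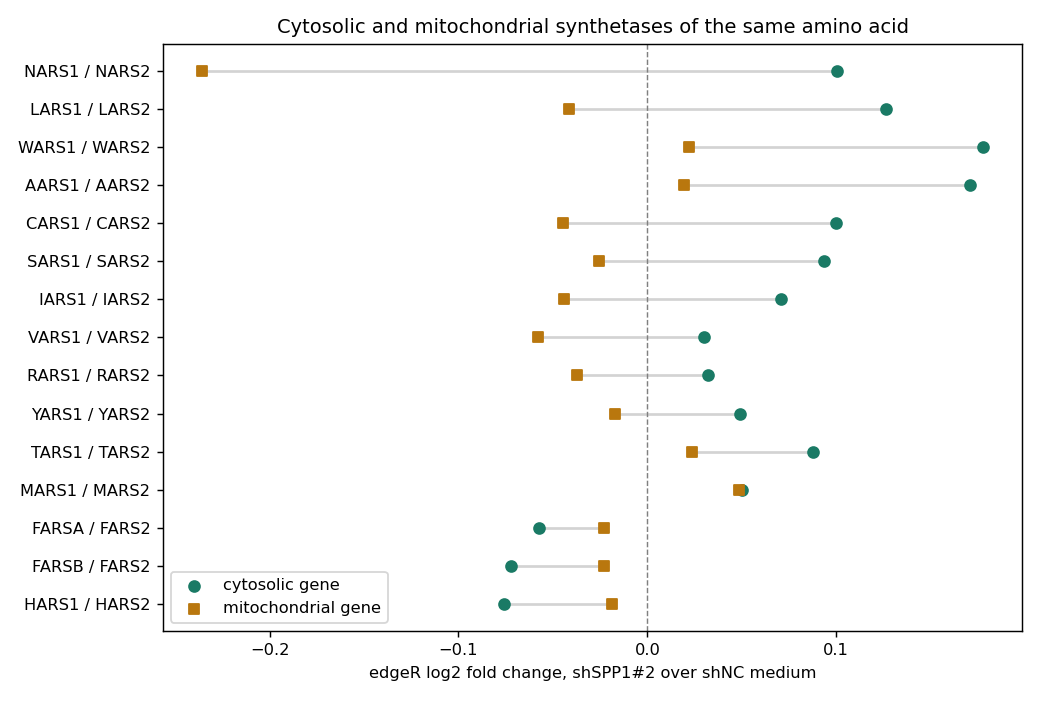
edgeR log2 fold change (shSPP1#2 over shNC medium) of the cytosolic gene (green circle) and the mitochondrial gene (orange square) for the same amino acid, joined by a grey line, in 15 of the 16 pairs, ordered by the difference. The cytosolic gene lies to the right in 12 of the pairs drawn.

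The 6 cytosolic genes whose promoter held TGATGNAA all had positive log2 fold changes, from 0.050 (MARS1) to 0.17 (AARS1), with a median of 0.094. The 10 cytosolic or dual genes whose window lacked these letters ran from -0.076 to 0.18, with a median of 0.035 and 6 positive. WARS1 and EPRS1 were among those without the letters in that window, and sequence outside the window was not searched. YARS2, the mitochondrial gene with a match, had a log2 fold change of -0.017. LARS1, at 0.13, and the other cytosolic genes whose promoter was not found are in neither group. AARS1, TARS1, NARS1 and MARS1 are also among the 10 most abundant cytosolic or dual genes, whereas CARS1 and IARS1 are not. Those 10 had a median of 0.097, and the 10 least abundant one of 0.035. No test was made on the split by letters, and the part of level in it was not tested.

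Partners of the synthetases were followed as a list of 16 genes, all tested by edgeR and by limma on log2(FPKM + 1), with 0 called by either. DESeq2 gave an adjusted p to only 3 of the 16 and called 0 of those. They had a median log2 fold change of 0.023, with 11 positive and 5 negative, where 49.9% of all tested genes were positive. At an unadjusted p under 0.05, 0 stood higher and 1 lower, where 3.45% of all tested genes stood higher and 3.39% lower. That gene was PSTK, the kinase that modifies seryl-tRNA on the way to selenocysteine. PSTK measured 0.97, 1.02 and 1.0 FPKM in shSPP1#2 medium and 1.51, 1.18 and 1.54 FPKM in shNC medium. The groups did not overlap, and the log2 fold change was -0.52 with a 95% interval from -1.02 to -0.017 (edgeR adjusted p = 0.714). Limma on log2(FPKM + 1) put it at -0.27. SEPSECS, which completes selenocysteine on the transfer RNA, measured 7.11, 6.06 and 6.92 FPKM in shSPP1#2 medium and 6.43, 5.8 and 6.2 FPKM in shNC medium (log2 fold change 0.13, edgeR adjusted p = 0.764, and 0.079 without shSPP1#2 replicate 1). EIF2AK4, which encodes GCN2, measured 13.6, 12.7 and 12.7 FPKM in shSPP1#2 medium and 11.5, 11.6 and 12.8 FPKM in shNC medium. Its groups overlapped, and its log2 fold change was 0.11 (95% interval -0.0017 to 0.22, edgeR adjusted p = 0.732). AIMP1, AIMP2 and EEF1E1, the scaffold proteins of the multisynthetase complex, had log2 fold changes of 0.0089, -0.055 and 0.037. TARS3, a second cytosolic threonine enzyme that the symbol rule leaves out, measured 3.31, 4.03 and 3.88 FPKM in shSPP1#2 medium and 4.26, 3.88 and 4.13 FPKM in shNC medium, with a log2 fold change of -0.15 (95% interval -0.35 to 0.046) that was -0.07 without shSPP1#2 replicate 1.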

How the data were processed

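The authors deposited estimated counts per gene and FPKM values per gene for 6 libraries. HISAT2 2.0.4, Bowtie2 2.2.5, RSEM and build GRCh38.p13 stand in the list of tools, per the submitters' processing notes, which gives no roles. The deposited estimated counts carry no scaling, and between 78.9% and 80.4% of a library's values were not whole (tolerance 0.005). For the deposited FPKM values the length and total used, the strand setting and any filter are unstated in these sources. Text lines (20) that held no gene were removed from the FPKM values. RSEM divides reads between similar genes, which can move reads between overlapping ones.

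Estimated counts were rounded, filtered with filterByExpr, scaled by TMM and tested with edgeR 4.0.16 in R 4.3.3, as shSPP1#2 minus shNC and without a block. Standard errors and 95% intervals come from that fit, whose biological coefficient of variation was 4.54%. Members and lists were chosen with earlier results of these data known. Values per library are given for the 8 cytosolic or dual and 4 mitochondrial members of smallest p, the 3 most and 3 least abundant of each class, and 3 partners of smallest p; other genes named, such as HARS1, IARS1 and MARS1, were added after their values were seen. One member is not reported here by itself or drawn in the plots by gene, but counts, medians and shares include it. The code was tested on simulated data. Within a group, replicates differed beyond counting noise (chi-square per degree of freedom 3.09 to 4.16). Positions and overlaps come from GENCODE v29 (GRCh38), in which all 37 members were found by Entrez number. Alternatives were RLE scaling, no low-count filter, DESeq2 1.42.0, limma 3.58.1 on log2(FPKM + 1) and log2(FPKM + 0.1), a mean FPKM of at least 1, a replicate block, and each library left out. Plots were drawn with matplotlib 3.10.9.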

Additional observations from a re-analysis of the deposited data

How the results depend on the processing

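The edgeR count over all genes was 0 and moved to 18 without a low-count filter, 13 with DESeq2, 25 with DESeq2 whose filter was set for 0.05 (chosen after the data were seen), 1 with limma on log2(FPKM + 0.1), and 1 to 10 with single libraries left out. The count of cytosolic members called moved from 0 to 2 with that second DESeq2 setting, for EPRS1 and AARS1, because fewer genes were adjusted over (1893 against 4265). The mitochondrial and partner counts were 0 in the edgeR and limma settings run. With DESeq2 they were 0 too, but only 2 of 17 mitochondrial members and 3 of 16 partners had an adjusted p at its default, and 1 of each with the second setting, so these zeros say nothing about stability.

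With the replicate number as a block edgeR called 59 genes, among them 2 cytosolic members, WARS1 (adjusted p = 0.0196) and EPRS1 (0.0350). Same-numbered libraries correlated at 0.048 to 0.096 in their deviations from the group means, and every library correlated best with its own number. The labels do not state a pairing, and correlations this small do not settle whether there was one.

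The cytosolic median ran from 0.054 to 0.076 and the mitochondrial median from -0.037 to -0.0076 with single libraries left out, and the count of positive cytosolic members was 16 in all settings run. The count of positive mitochondrial members, 5 with edgeR, was 7 in the limma fits and 4 to 8 with single libraries left out. Sign turned in 9 of 322 values for 23 named genes, none of them called. With single libraries left out TARS2 ran from -0.015 (without shSPP1#2 replicate 2) to 0.053, and PARS2 from -0.18 to 0.020, with 0.0032 and 0.020 without shNC replicates 1 and 3. FARS2 was 0.025 with limma on log2(FPKM + 1), with or without the filter at 1 FPKM, and 0.039 on log2(FPKM + 0.1). Left-out libraries gave FARS2 values of -0.081 to 0.015, with 0.012, 0.0006 and 0.015 without shSPP1#2 replicate 1, shSPP1#2 replicate 3 and shNC replicate 1. The causes of the sign changes were not tested. The mitochondrial class, of lower level, had a median standard error of 0.078 against 0.047 in the cytosolic class. The part of level in that difference was not tested.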

Other observations

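The multisynthetase complex binds 8 of the cytosolic or dual enzymes. Their genes had a median log2 fold change of 0.046, with 7 of 8 positive, and the 12 genes of enzymes outside it had a median of 0.090, with 9 of 12 positive. Synthetases also fall into 2 structural classes of catalytic domain. The 9 cytosolic genes of class I had a median of 0.050 with 8 positive, and the 10 of class II one of 0.065 with 7 positive; EPRS1, which holds a domain of each, was left out. The 10 most abundant cytosolic or dual genes by FPKM had a median of 0.097 with 9 positive, and the 10 least abundant one of 0.035 with 7 positive. Over the 5562 tested genes whose mean log2 CPM reached 5 the median was 0.0027, with 2888 positive. These splits are values only and were not tested.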
